A study of Mus musculus with 42 samples.

Results

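The genes described here encode histones and the proteins that modify, move, read or bind chromatin. They were chosen by symbol: histone genes, and genes whose names begin as those of the histone deacetylases (Hdac1 left out), lysine demethylases and methyltransferases, Setd and Ezh methyltransferases, DNA methyltransferases, Smarc and Chd remodellers, Cbx and Brd readers, high mobility group proteins, and the Sin3 and Ncor corepressors. The array held 43 such genes, on 47 reporters, among 3230 genes with a reporter of their own and 4992 reporters in all. Each gene is represented by its brightest reporter. Roles such as histone methyltransferase or remodeller were also given by symbol alone, and the activity of each protein was not checked. The naming rule itself, with its exception for Hdac1, was written with earlier results of these data known.

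DNA in the nucleus is wound around octamers of core histones, and the bulk of these is made while DNA is copied, whereas variants such as H2A.Z are supplied throughout the cell cycle. Enzymes that add or remove methyl and acetyl groups on histones, DNA methyltransferases, ATP-driven remodelling complexes and small nucleosome-binding proteins together set which genes can be read. CD4+ T cells are a standard setting for such questions, because a resting naive cell divides rapidly on activation, takes on a T helper 1 (Th1) or T helper 2 (Th2) programme, returns to rest and can persist as a memory cell that keeps the programme.

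Naive CD4+ T cells came from the spleens of mice carrying both the AND T cell receptor transgene, specific for a pigeon cytochrome C peptide on I-Ek, and a green fluorescent protein (GFP) transgene, and were CD44 low, CD62L high, CD45RB high and CD25-. For effectors, these cells were cultured for 4 days with antigen-presenting cells in medium that favours Th1 or Th2 fate, and rested cells were then kept for another 3 days with no such cells added. Memory cells were recovered by sorting 4 to 12 weeks after rested effectors, made by the same 4 days of stimulation and 3 days of rest, had been transferred into thymectomised, lethally irradiated mice reconstituted with T cell-depleted bone marrow. All groups therefore carried both transgenes, and every memory cell had passed through an irradiated host that had few T cells of its own. The age of the mice is not given, and neither is whether the 3 numbered samples of a group came from separate animals or cultures, so p-values measure the spread between these samples, which may be technical. The protocol names the spleen as source, whereas the source label of every sample says thymus. For memory Th2 cells the titles and descriptions disagree (M-Th2 in the first, RM-Th2 in the second).

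There were 7 groups of 3 samples (naive cells, then 3 stages of each lineage), and each sample had 2 arrays, a and b, of radioactively labelled cDNA primed with oligo(dT) from 5 to 15 µg of total RNA. Most replication-dependent histone messages lack a poly(A) tail, and oligo(dT) priming favours messages that have one. Levels are given as log2(intensity + 1) after quantile normalisation, in the order of samples 1 to 3. The median reporter stood at 3.13, and differences of dim genes are understated on this scale. Array medians of the deposited intensity ran from 5.74 to 12.99, and the correlation of levels between samples of one group lay between 0.893 and 0.974. Near-identical gene copies may share signal on one cDNA reporter, which bears most on the histone, Hmgn and Cbx families.

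Before the results, a property of the files has to be stated. The spot-by-spot ratio of array a to array b was nearly identical in 13 pairs of samples with the same number in different groups, so that the 21 samples held 10 such patterns. A pattern was counted as shared at a correlation over 0.9 across spots. The 13 pairs correlated at 0.986 or more, and all other pairs at 0.0665 or less. Effector Th1 and Th2 samples of a number shared a pattern, as did rested Th1 with rested Th2 samples and memory Th1 with memory Th2 samples, and memory samples 1 and 3 also shared theirs with naive samples 1 and 3. The pattern changed wherever naive, effector and rested cells or rested and memory cells were compared, so for these steps the stage and the pattern cannot be told apart. Likewise, a likeness of memory to naive cells cannot be told apart from the patterns that their samples 1 and 3 share. Same-numbered samples also deviated together from their group means, so most results whose call changed with the number as a block are given with it.

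Of the CD4 T cell genes listed as a check, 1 of 12 (Cd247) was measured. It was dim, with group means between 1.73 and 2.0, and was called in no comparison, so the array could not test the labelled cell type. In these bulk samples, fewer cells of a type and less RNA per cell cannot be told apart.

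Across the 7 groups, 11 of the 43 genes varied (limma F test, adjusted p under 0.05), against 27.2% of all reporters. The 11 were H2aw, H2az1, H3f3b, Hmgb2, Hmgn1, Hmgn2, Hmgn5, Dnmt1, Smarca2, Smarce1 and Brd3. All 3 histone genes and 4 of the 5 high mobility group genes were among them, whereas 0 of 9 histone methyltransferases, 0 of 5 histone demethylases and 0 of 4 deacetylases and corepressors were. With the sample number as a block the count was 23, against 46.7% of all reporters, and it included 4 of the 9 histone methyltransferases, 0 of the 5 histone demethylases, 3 of the 4 deacetylases and corepressors and 4 of the 6 readers. Hdac1, the class I deacetylase that the rule leaves out, varied as well: it rose in effectors by 4.39 ± 0.35 in Th1 and 3.46 ± 0.35 in Th2 (adjusted p = 2.49e-08 and 7.30e-07), so the counts of deacetylases hold only without it.

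**Figure D1:**
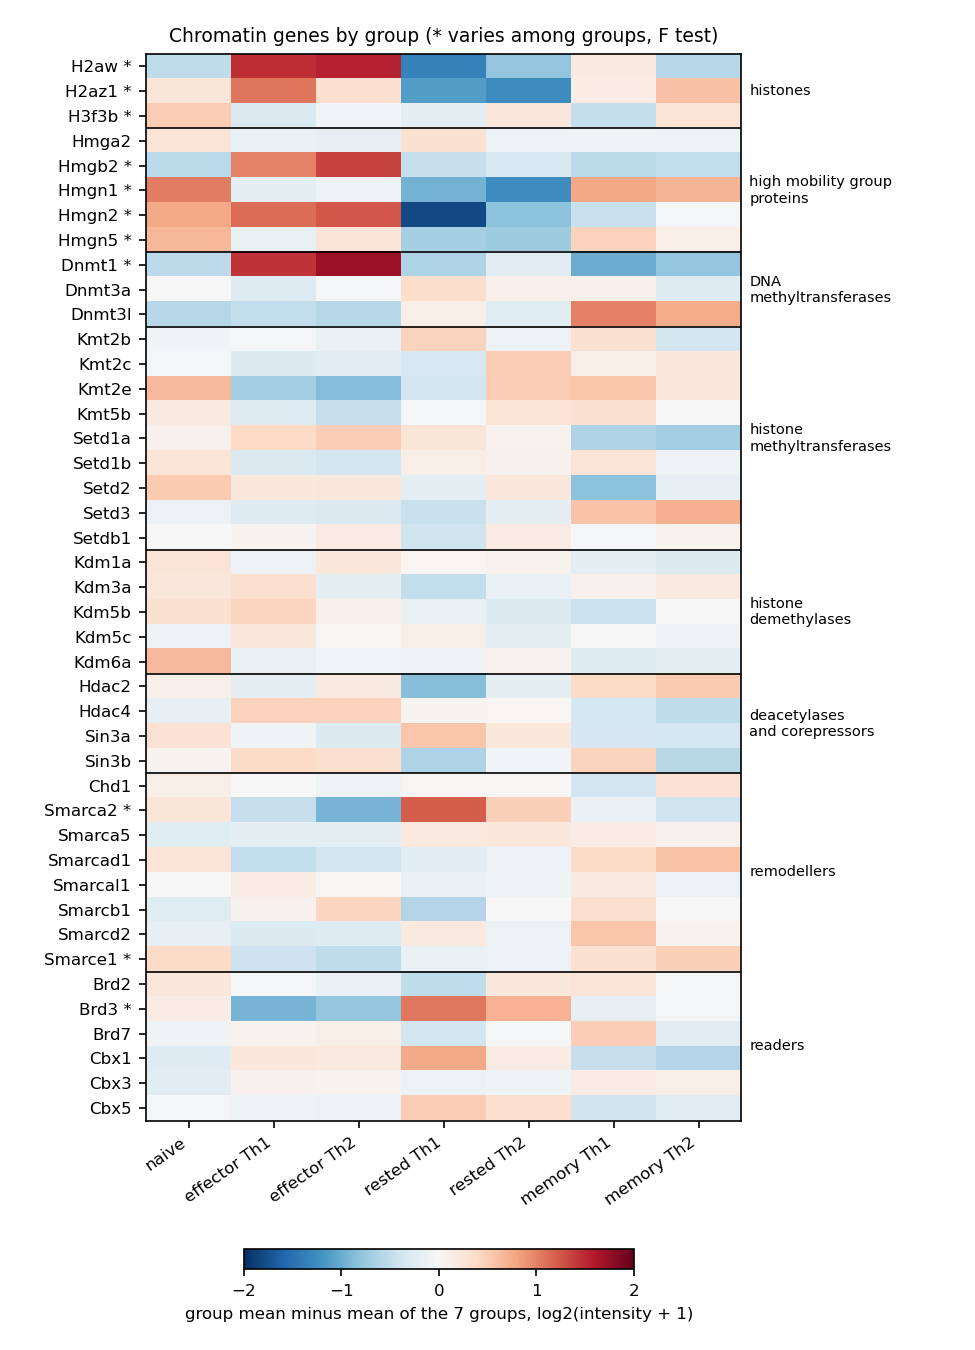
Mean level of the 43 genes (rows, by role) in the 7 groups (columns), each as the difference from the gene's mean over the groups on the log2(intensity + 1) scale; an asterisk marks the 11 genes that varied by the F test. H2aw, Hmgb2 and Dnmt1 are red in the effector groups and blue or pale elsewhere. Smarca2 and Brd3 are blue in the effector and red in the rested groups, and Smarca2 is blue or pale in the memory groups. No gene grouped as a histone methyltransferase or demethylase carries an asterisk.

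Step by step, the called genes were few and changed direction between steps. From naive to effector cells, 6 genes changed in Th1 (3 rose and 3 fell, against 9.88% of all reporters, 5.53% higher and 4.35% lower) and 6 in Th2 (3 rose and 3 fell, against 9.13%, 5.31% higher and 3.83% lower). From effector to rested cells, 7 changed in Th1 (2 rose and 5 fell, against 16.2%, 7.61% higher and 8.61% lower) and 7 in Th2 (1 rose and 6 fell, against 7.57%, 3.45% higher and 4.13% lower). From rested to memory cells, 9 changed in Th1 (6 rose and 3 fell, against 17.8%, 9.42% higher and 8.35% lower) and 2 in Th2 (both rose, against 3.91%, 2.28% higher and 1.62% lower). Memory Th1 differed from naive cells in 2 genes, both lower, against 0.781% of reporters (0.361% higher and 0.421% lower), and memory Th2 in 0 genes, against 0.28%, with 5 of the 43 genes and 441 of the 4992 reporters at an unadjusted p under 0.05. With the spot pattern as a random block, the counts against naive were 15 for memory Th1 (29.8% of reporters) and 12 for memory Th2 (23.8%). In a fit of the compared groups alone, Hmgn1 was the 1 call left of the 9 from rested to memory Th1 cells, and 0 were left for memory Th1 minus naive. All called genes had groups of samples that did not overlap. The share of all reporters without overlap is not given, so this adds no support to the calls.

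With the sample number as a block, the counts were 11 for effector Th1 minus naive (16.7% of reporters), 11 for rested Th2 minus effector Th2 (15.8%), 16 for memory Th1 minus rested Th1 (32.2%) and 6 for memory Th2 minus rested Th2 (14.4%). They were 9 for effector Th2 minus naive (15.2%), 8 for rested Th1 minus effector Th1 (27.3%) and 3 for memory Th1 minus naive (5.97%). The block ended none of the 39 calls. Median differences of the 43 genes follow, each against the median of all 4992 reporters. They were -0.10 against -0.05 for effector Th1 minus naive, -0.10 against -0.01 for rested Th1 minus effector Th1, and 0.26 against 0.09 for memory Th1 minus rested Th1. In Th2 cells the corresponding medians were -0.07 against -0.06, 0.02 against 0.00, and -0.12 against 0.02. Over the 3230 genes, each by its brightest reporter, the medians of these steps were -0.02, -0.06 and 0.07 in Th1. In Th2 they were -0.03, -0.04 and -0.003. Of those genes, 11.6%, 17.2% and 18.8% were called in Th1 and 10.8%, 8.61% and 4.18% in Th2, without a block. Against naive cells the median was -0.09 against 0.04 in memory Th1 and -0.19 against 0.01 in memory Th2. In memory Th2, 28 of the 43 genes were on the negative side, as were 2446 of the 4992 reporters. The same held for 1699 of the 3230 genes with a reporter of their own, each by its brightest reporter. The medians of those 3230 genes against naive were -0.01 in memory Th1 and -0.03 in memory Th2.

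**Figure D2:**
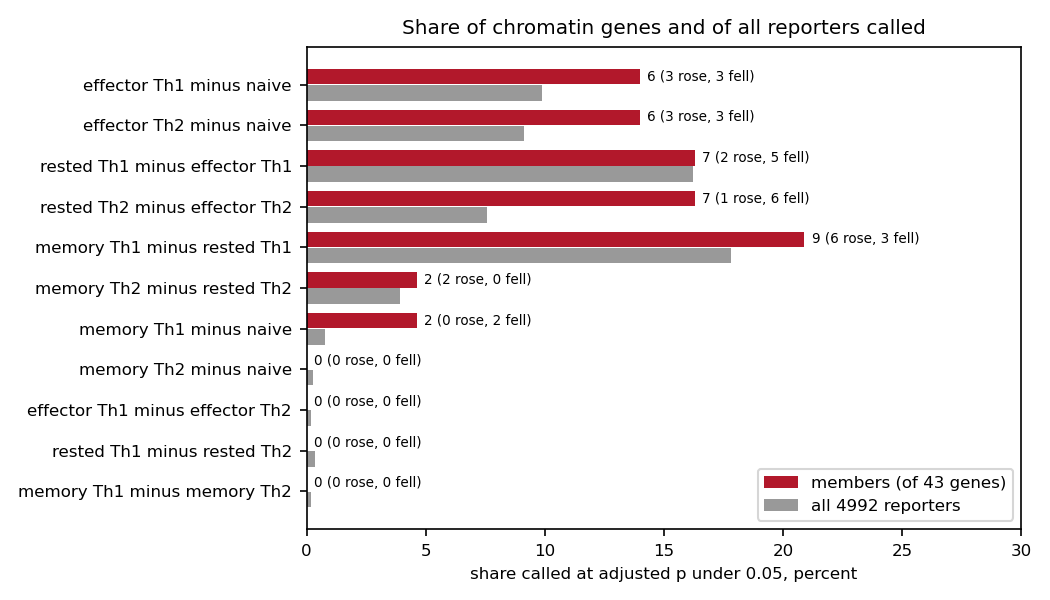
Share of the 43 chromatin genes (red) and of all 4992 reporters (grey) called at an adjusted p under 0.05 in each of 11 comparisons, in percent, with the number of genes beside each red bar. The shares are close for rested Th1 minus effector Th1 (7 genes against 16.2% of reporters), and 0 genes are called in the comparisons of Th1 with Th2 at a stage. The fit shown ignores the pairing of same-numbered samples, and the blocked fits given in the text did call genes between Th1 and Th2.

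Among the histones, H2aw encodes an H2A protein, one of the core histones. Its naive levels were 4.73, 5.22 and 5.28, and its effector levels were 6.91, 7.0 and 7.29 in Th1 and 7.02, 7.29 and 7.08 in Th2. Rested levels were 3.77, 3.91 and 5.03 in Th1 and 4.60, 4.74 and 5.07 in Th2, and memory levels were 5.19, 5.68 and 6.44 in Th1 and 4.54, 4.87 and 5.61 in Th2. The effector samples stood above every sample of the other groups. H2aw rose from naive to effector cells by 1.99 ± 0.35 (log2, SE, n = 3 per group) in Th1 (3.97-fold, adjusted p = 0.000583) and by 2.05 ± 0.35 in Th2 (4.15-fold, adjusted p = 0.000421). It fell on rest by 2.83 ± 0.35 in Th1 (7.12-fold, adjusted p = 1.05e-05) and by 2.33 ± 0.35 in Th2 (5.02-fold, adjusted p = 0.000164). It rose again from rested to memory Th1 cells by 1.54 ± 0.35 (adjusted p = 0.00608). In a fit of the compared groups alone that last call was lost (adjusted p = 0.0788). The memory Th2 difference was 0.21 ± 0.35, and the difference between the 2 memory steps was not called in the interaction test.

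H2az1 encodes the H2A.Z variant, which marks nucleosomes at promoters. Its naive levels were 8.75, 8.20 and 8.16, its effector Th1 levels 9.84, 8.78 and 8.96, and its effector Th2 levels 9.07, 8.04 and 8.27. Rested cells gave 7.09, 6.79 and 7.16 in Th1 and 7.10, 6.53 and 6.96 in Th2, and memory cells gave 8.40, 8.41 and 8.03 in Th1 and 8.87, 8.87 and 8.43 in Th2. All 6 rested samples were below all other samples. H2az1 fell on rest by 2.18 ± 0.31 in Th1 (4.53-fold, adjusted p = 4.74e-05) and by 1.60 ± 0.31 in Th2 (3.02-fold, adjusted p = 0.00207). It rose from rested to memory cells by 1.26 ± 0.31 in Th1 (adjusted p = 0.00919) and by 1.86 ± 0.31 in Th2 (adjusted p = 0.00118). The Th1 rise into memory was lost in a fit of those groups alone (adjusted p = 0.0684). Memory and naive levels differed by -0.10 in Th1 (95% interval -0.74 to 0.55) and by 0.35 in Th2 (-0.295 to 0.995). The rise from naive to effector Th1 cells, 0.82, was called with the sample number as a block (adjusted p = 0.0191) and not without it.

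H3f3b encodes the H3 variant that is placed in chromatin outside DNA replication. Naive samples read 8.38, 8.10 and 8.12, effector Th1 samples 7.46, 7.42 and 7.33, and effector Th2 samples 7.70, 7.53 and 7.68. Rested samples read 7.47, 7.44 and 7.62 in Th1 and 8.04, 7.67 and 8.03 in Th2, and memory samples 7.28, 7.09 and 7.28 in Th1 and 8.06, 7.84 and 7.99 in Th2. Every Th1 sample was below every naive sample. H3f3b fell from naive to effector Th1 cells by 0.80 ± 0.19 (adjusted p = 0.00881), and memory Th1 cells were lower than naive cells by 0.98 ± 0.19 (adjusted p = 0.0154). The effector call was lost without naive sample 1 (adjusted p = 0.0575) and in a fit of those groups alone (adjusted p = 0.0565), and the memory call without naive sample 1, 2 or 3 (adjusted p = 0.10, 0.0520 and 0.0587). Neither call held when arrays were centred on their medians instead of quantile-normalised (adjusted p = 0.146 and 0.159). The Th2 effector difference, -0.56, was called with the sample number as a block (adjusted p = 0.0180).

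The high mobility group proteins are small, abundant proteins that bind DNA or nucleosomes and alter their shape. Hmgb2 bends DNA and is known for its abundance in dividing lymphoid cells. Its naive levels were 6.68, 6.05 and 6.78, and its effector levels 8.09, 7.83 and 8.16 in Th1 and 8.40, 8.23 and 8.52 in Th2. Rested levels were 6.40, 6.22 and 7.12 in Th1 and 6.67, 6.68 and 6.83 in Th2, and memory levels 6.13, 7.05 and 6.30 in Th1 and 6.29, 6.84 and 6.48 in Th2. The effector samples lay above all others, and the naive, rested and memory samples overlapped. Hmgb2 rose in effectors by 1.52 ± 0.29 in Th1 (2.88-fold, adjusted p = 0.00103) and by 1.88 ± 0.29 in Th2 (3.69-fold, adjusted p = 0.000125). It fell on rest by 1.45 ± 0.29 (adjusted p = 0.00131) and 1.66 ± 0.29 (adjusted p = 0.000678). Memory and naive levels differed by -0.01 in Th1 (95% interval -0.61 to 0.58) and by 0.04 in Th2 (-0.56 to 0.63).

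Hmgn2 belongs to the nucleosome-binding HMGN proteins, which loosen compacted chromatin. Naive samples gave 7.79, 7.55 and 7.70, and effector samples 8.42, 7.56 and 8.14 in Th1 and 8.50, 7.80 and 8.20 in Th2. Rested samples gave 5.42, 5.40 and 4.51 in Th1 and 6.12, 6.0 and 6.18 in Th2, and memory samples 6.57, 6.55 and 6.29 in Th1 and 6.92, 6.97 and 6.74 in Th2. The rested samples were the lowest, the memory samples lay between them and the naive samples, and none of these sets overlapped. Hmgn2 fell on rest by 2.93 ± 0.27 in Th1 (7.63-fold, adjusted p = 3.07e-07) and by 2.07 ± 0.27 in Th2 (4.19-fold, adjusted p = 3.19e-05). It rose from rested to memory Th1 cells by 1.36 ± 0.27 (adjusted p = 0.00221), a call lost in a fit of those groups alone (adjusted p = 0.0684). In Th2 the rise of 0.77 was called with the sample number as a block (adjusted p = 0.0372).

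Memory Th1 cells stayed below naive cells in Hmgn2 by 1.21 ± 0.27 (adjusted p = 0.0387), and memory Th2 cells differed from naive cells by -0.81 ± 0.27 without a call (adjusted p = 0.345). The Th1 call was lost without naive sample 1, 2 or 3 (adjusted p = 0.142, 0.113 and 0.140), without memory Th1 sample 1 or 3 (adjusted p = 0.0955 and 0.115) and with median centring (adjusted p = 0.0920). A second, dimmer Hmgn2 reporter gave the same calls: it fell by 2.94 and 2.23 on rest in Th1 and Th2, rose by 1.17 from rested to memory Th1 cells and was lower by 1.44 in memory Th1 than in naive cells.

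Hmgn1, a close relative of Hmgn2, was also lowest in rested cells, but its effector means were below its naive mean. Its course was not tested against that of Hmgn2. Naive levels were 4.89, 4.64 and 5.15, and effector levels 3.78, 3.25 and 3.98 in Th1 and 3.74, 3.49 and 4.06 in Th2. Rested levels were 2.85, 2.28 and 3.64 in Th1 and 2.33, 2.56 and 2.93 in Th2, and memory levels 4.48, 4.72 and 4.72 in Th1 and 4.42, 4.14 and 5.07 in Th2. Every effector and rested sample was below every naive and memory sample. Hmgn1 rose from rested to memory cells by 1.71 ± 0.32 in Th1 (3.28-fold, adjusted p = 0.00149) and by 1.94 ± 0.32 in Th2 (3.84-fold, adjusted p = 0.00118). Both calls held under every alternative tried. The interval of memory minus naive was -0.93 to 0.42 in Th1 and -1.02 to 0.33 in Th2.

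The earlier falls of Hmgn1 were less firm. It fell from naive to effector cells by 1.22 ± 0.32 in Th1 (adjusted p = 0.0173) and by 1.13 ± 0.32 in Th2 (adjusted p = 0.0306), and from effector to rested Th2 cells by 1.16 ± 0.32 (adjusted p = 0.0300). The Th1 fall was lost without naive sample 1 or 3 or effector Th1 sample 2 (adjusted p = 0.0533, 0.0839 and 0.0971). The Th2 effector fall was lost without naive sample 1 or 3 or effector Th2 sample 1 or 2 (adjusted p = 0.0865, 0.130, 0.0919 and 0.128) and with median centring (adjusted p = 0.0721). The Th2 fall on rest was lost without effector Th2 sample 1 or 3 or rested Th2 sample 1 or 2 (adjusted p = 0.0855, 0.160, 0.149 and 0.0996) and with the series matrix values (adjusted p = 0.0512). Both Th2 falls were lost with the spot pattern as a random block (adjusted p = 0.0676 and 0.0735). On rest in Th1 the difference was -0.74, called with the sample number as a block (adjusted p = 0.0156).

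Hmgn5, the third HMGN gene measured, read 4.29, 4.52 and 4.5 in naive cells, 2.89, 2.89 and 3.58 in rested Th1 cells, 3.23, 2.91 and 3.08 in rested Th2 cells, and 4.44, 4.11 and 4.18 in memory Th1 cells. It rose from rested to memory Th1 cells by 1.12 ± 0.32 (adjusted p = 0.0210). That call was lost without rested Th1 sample 1 or 2 or memory Th1 sample 1 (adjusted p = 0.0765, 0.0776 and 0.0647). With the sample number as a block, Hmgn5 also fell on rest in Th2 by 0.96 (adjusted p = 0.0188) and rose into memory Th2 by 0.84 (adjusted p = 0.0447). Hmga2, an architectural protein best known from embryonic tissue, did not vary, with group means between 2.92 and 3.39.

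**Figure D3:**
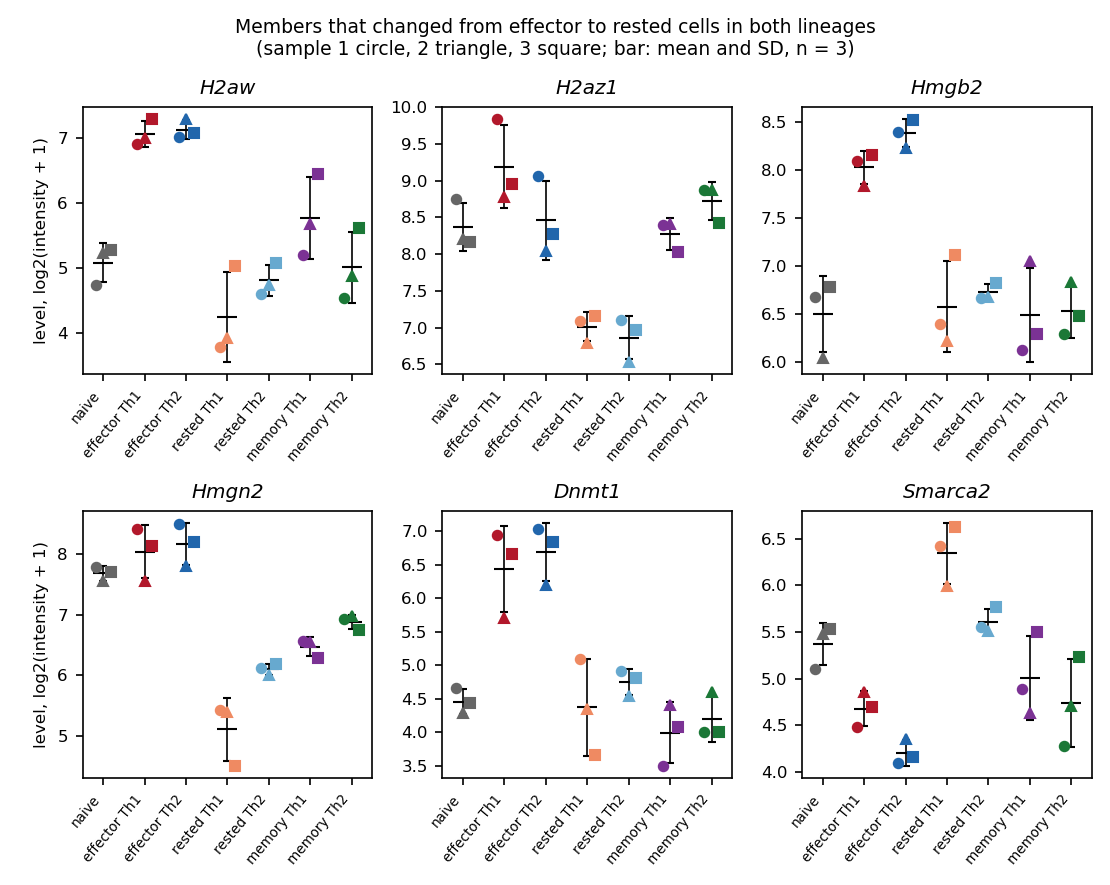
Level of the 6 genes that changed from effector to rested cells in both lineages, in each of the 21 samples by group, on the log2(intensity + 1) scale; symbols mark the sample number and bars the mean and SD of 3 samples. H2aw, H2az1, Hmgb2, Hmgn2 and Dnmt1 are lower in rested than in effector samples and Smarca2 is higher, with no overlap, and the memory samples of H2az1 overlap the naive samples.

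Among the DNA methyltransferases, Dnmt1 copies methylation onto the new strand after replication. Its levels were 4.66, 4.28 and 4.43 in naive cells, 6.94, 5.71 and 6.67 in effector Th1 cells and 7.04, 6.20 and 6.84 in effector Th2 cells. Rested cells read 5.10, 4.35 and 3.66 in Th1 and 4.91, 4.54 and 4.81 in Th2, and memory cells 3.5, 4.40 and 4.08 in Th1 and 4.00, 4.60 and 4.00 in Th2. The effector samples stood apart above all others. Dnmt1 rose in effectors by 1.98 ± 0.37 in Th1 (3.95-fold, adjusted p = 0.000928) and by 2.23 ± 0.37 in Th2 (4.70-fold, adjusted p = 0.000289), and fell on rest by 2.07 ± 0.37 (adjusted p = 0.000510) and 1.94 ± 0.37 (adjusted p = 0.00170). Unlike H2az1 and Hmgn1 it was not called from rested to memory cells, where it differed by -0.37 in Th1 (95% interval -1.14 to 0.39) and by -0.55 in Th2 (-1.31 to 0.21). Whether these courses differ between genes was not tested.

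Dnmt3a, which sets methylation on unmethylated DNA, had group means between 2.73 and 3.33 and was called in no comparison. Dnmt3l, a catalytically inactive partner of Dnmt3a, read 4.49, 2.12 and 4.24 in memory Th1 and 4.05, 2.25 and 3.75 in memory Th2 cells, and the other groups had means of 2.05 to 2.74. Memory samples 1 and 3 were high in both lineages and sample 2 lay at the level of the other groups. Its F test just missed the threshold (adjusted p = 0.0505).

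Of the 6 genes that changed on rest in both lineages, the promoters of the 5 with 1 annotated start are shown, 4 that fell and 1 that rose, so that both directions can be set side by side. The windows run from 250 bases before to 50 bases after the annotated start and come from RefSeq (GRCm38.p6). They lie at chr11:58954435-58954734 (H2aw, plus strand), chr3:137864237-137864536 (H2az1, plus strand), chr8:57511593-57511892 (Hmgb2, plus strand), chr4:133967942-133968241 (Hmgn2, minus strand) and chr19:26604910-26605209 (Smarca2, plus strand). Capitals mark CCAAT and its reverse complement ATTGG, a box found in many promoters and bound by NF-Y. Smarca2, the 1 that rose, is given last.
H2aw: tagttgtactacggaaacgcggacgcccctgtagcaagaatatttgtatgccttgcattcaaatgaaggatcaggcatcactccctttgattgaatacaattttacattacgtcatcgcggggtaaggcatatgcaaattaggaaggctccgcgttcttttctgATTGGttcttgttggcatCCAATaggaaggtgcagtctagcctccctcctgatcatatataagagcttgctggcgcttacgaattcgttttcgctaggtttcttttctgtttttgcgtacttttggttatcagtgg
H2az1: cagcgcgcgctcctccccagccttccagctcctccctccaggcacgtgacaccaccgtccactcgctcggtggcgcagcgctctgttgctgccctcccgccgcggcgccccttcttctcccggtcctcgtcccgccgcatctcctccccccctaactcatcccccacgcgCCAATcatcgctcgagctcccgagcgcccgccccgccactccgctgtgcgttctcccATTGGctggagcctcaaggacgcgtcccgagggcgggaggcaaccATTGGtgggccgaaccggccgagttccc
Hmgb2: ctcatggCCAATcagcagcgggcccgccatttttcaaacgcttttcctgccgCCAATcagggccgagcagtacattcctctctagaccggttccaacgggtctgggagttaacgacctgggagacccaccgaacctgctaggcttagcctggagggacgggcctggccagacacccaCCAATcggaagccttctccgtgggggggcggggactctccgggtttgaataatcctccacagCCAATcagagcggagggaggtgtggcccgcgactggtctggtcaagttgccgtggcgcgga
Hmgn2: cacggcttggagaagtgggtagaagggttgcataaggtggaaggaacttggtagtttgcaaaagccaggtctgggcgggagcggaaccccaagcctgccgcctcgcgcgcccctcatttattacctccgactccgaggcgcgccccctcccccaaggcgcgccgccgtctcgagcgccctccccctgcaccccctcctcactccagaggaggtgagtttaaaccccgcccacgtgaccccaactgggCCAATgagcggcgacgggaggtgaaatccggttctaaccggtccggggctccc
Smarca2: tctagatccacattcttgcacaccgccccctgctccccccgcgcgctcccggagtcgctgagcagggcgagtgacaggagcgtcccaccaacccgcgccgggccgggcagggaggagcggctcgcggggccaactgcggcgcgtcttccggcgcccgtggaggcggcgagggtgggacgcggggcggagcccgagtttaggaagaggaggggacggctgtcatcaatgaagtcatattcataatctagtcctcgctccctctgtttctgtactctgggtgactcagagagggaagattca
The box occurred 2 times in the H2aw window, 3 times in that of H2az1, 4 times in that of Hmgb2 and 1 time in that of Hmgn2, and 0 times in that of Smarca2. Dnmt1 has 3 annotated starts, and its windows held 3, 0 and 5 matches. On either strand CCAAT stood in 37.4% of all 32851 windows of the table and in 38.9% of the 54 windows of these genes, where 38 of the 43 genes had at least 1 window. The motif TTTGAA stood in 17.9% of all windows and 9.26% of these (5 of 54), and TTTCCCGC or TTTGGCGC in 1.56% and 5.56% (3 of 54). These counts are small, and the differences were not tested. The share with CCAAT was thus close to that of all promoters, and a match of letters is a description only.

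The remodellers use ATP to slide or evict nucleosomes. Smarca2, also known as BRM, is an alternative ATPase of the BAF complex. Naive samples read 5.11, 5.48 and 5.53, and effector samples 4.48, 4.86 and 4.70 in Th1 and 4.10, 4.36 and 4.16 in Th2. Rested samples read 6.42, 5.99 and 6.63 in Th1 and 5.56, 5.51 and 5.77 in Th2, and memory samples 4.89, 4.63 and 5.50 in Th1 and 4.28, 4.71 and 5.23 in Th2. Rested Th1 samples were the highest of all and effector Th2 samples among the lowest. Smarca2 rose on rest by 1.67 ± 0.27 in Th1 (3.17-fold, adjusted p = 0.000229) and by 1.41 ± 0.27 in Th2 (2.66-fold, adjusted p = 0.00208).

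Smarca2 also fell from naive to effector Th2 cells by 1.17 ± 0.27 (adjusted p = 0.00752), which median centring ended (adjusted p = 0.0760), and from rested to memory Th1 cells by 1.34 ± 0.27 (adjusted p = 0.00273), which a fit of those groups alone ended (adjusted p = 0.0739). The effector Th1 difference of -0.69 and the memory Th2 step of -0.88 were called with the sample number as a block (adjusted p = 0.0407 and 0.0165). A second, dim Smarca2 reporter, with a mean level of 2.30, was called in no comparison. It differed by 0.35 on rest in Th1, 0.02 on rest in Th2 and 0.55 from rested to memory Th1, the last with the opposite sign, so the Smarca2 results rest on the brighter reporter.

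Smarce1, a DNA-binding subunit of the same complex, read 6.56, 6.18 and 6.61 in naive cells, 5.32, 5.95 and 5.68 in effector Th1 cells and 5.28, 5.65 and 5.71 in effector Th2 cells. Memory samples lay at 6.46, 6.08 and 6.55 in Th1 and 6.6, 6.39 and 6.62 in Th2, overlapping the naive samples. It fell in effectors by 0.80 ± 0.25 in Th1 (adjusted p = 0.0459) and by 0.90 ± 0.25 in Th2 (adjusted p = 0.0238). The Th1 call was lost without naive sample 1 or 3 or effector Th1 sample 1 or 3 (adjusted p = 0.150, 0.161, 0.215 and 0.104). The Th2 call was lost without naive sample 1 or 3 or effector Th2 sample 1 (adjusted p = 0.0969, 0.103 and 0.127), and median centring ended both (adjusted p = 0.392 and 0.301). The Th1 call was also lost in a fit of those groups alone (adjusted p = 0.0918) and with the spot pattern as a random block (adjusted p = 0.0565). The other 6 genes grouped by symbol with the remodellers, Chd1, Smarca5, Smarcad1, Smarcal1, Smarcb1 and Smarcd2, were called in no comparison. Smarcb1 rose from rested to memory Th1 cells by 0.91 with the sample number as a block (adjusted p = 0.0159), and its second reporter differed by -0.35 there.

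**Figure D4:**
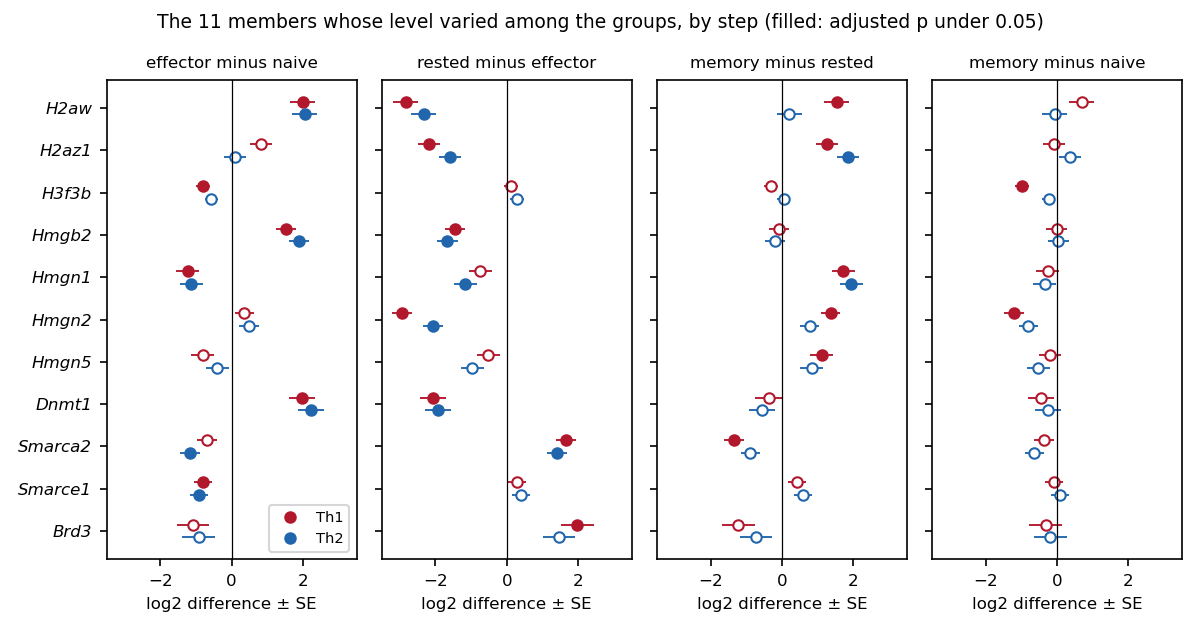
Difference in log2(intensity + 1) with its standard error at each step for the 11 genes that varied, in Th1 (red) and Th2 (blue), n = 3 samples per group; filled points passed an adjusted p of 0.05. H2aw, Hmgb2 and Dnmt1 go up in effectors and down on rest, H2az1 and Hmgn1 go up from rested to memory cells in both lineages, and memory minus naive is filled for H3f3b and Hmgn2 in Th1 alone.

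Readers bind modified histones through bromodomains or chromodomains. Brd3, a bromodomain protein that binds acetylated histones, read 7.49, 7.70 and 6.46 in naive cells, 6.42, 6.75 and 5.25 in effector Th1 cells and 6.51, 6.90 and 5.49 in effector Th2 cells. Rested cells read 8.37, 8.33 and 7.65 in Th1 and 8.01, 8.04 and 7.25 in Th2, and memory cells 7.52, 6.80 and 6.36 in Th1 and 7.62, 6.91 and 6.56 in Th2. Sample 3 was the lowest in all 7 groups. Brd3 rose on rest in Th1 by 1.98 ± 0.45 (3.94-fold, adjusted p = 0.00456). With the sample number as a block it also rose on rest in Th2 by 1.47 (adjusted p = 0.000283), fell in effectors by 1.08 in Th1 and 0.92 in Th2 (adjusted p = 0.00357 and 0.0115), and fell from rested to memory cells by 1.22 and 0.73 (adjusted p = 0.000934 and 0.0467).

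Cbx1 and Cbx5 encode heterochromatin protein 1 beta and alpha, which bind methylated H3. Cbx1 read 5.06, 4.02 and 3.54 in rested Th1 and 2.47, 3.13 and 3.35 in memory Th1 cells, and fell by 1.22 ± 0.35 (adjusted p = 0.0208). The call was lost without rested Th1 sample 1 or memory Th1 sample 1 (adjusted p = 0.123 and 0.0889) and with the spot pattern as a random block (adjusted p = 0.0526). Brd2, Brd7, Cbx3 and Cbx5 were called in no comparison without a block. With it, Brd2 and Brd7 rose from rested to memory Th1 cells by 0.78 and 0.86 (adjusted p = 0.00625 and 0.0114), and Cbx5 fell by 0.91 (adjusted p = 0.00754).

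No gene grouped by symbol as a histone methyltransferase or demethylase passed the test without the block. The first group held 9 genes (Kmt2b, Kmt2c, Kmt2e, Kmt5b, Setd1a, Setd1b, Setd2, Setd3, Setdb1), and membership does not show that a protein methylates histones. The second held 5 (Kdm1a, Kdm3a, Kdm5b, Kdm5c, Kdm6a). Of both groups, 0 were called by limma in any of the 11 comparisons of groups. At an unadjusted p under 0.05 there were 0 to 2 methyltransferases and 0 to 2 demethylases in each comparison, for example 2 and 1 for effector Th2 minus naive, where 949 of the 4992 reporters were below it. Several of these genes were dim, and their within-group SD ran from 0.30 (Setdb1) to 1.14 (Setd2).

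Kmt2e, a trithorax-related protein, had group means of 4.59 in naive, 3.25 in effector Th1 and 3.07 in effector Th2 cells. With the sample number as a block it fell in effectors by 1.34 and 1.52 (adjusted p = 0.0158 and 0.00716) and rose on rest in Th2 by 1.38 (adjusted p = 0.0133). The same block called Kmt2c higher in rested than effector Th2 cells by 0.73 (adjusted p = 0.0357), Setd3 higher in memory than rested Th1 cells by 1.02 (adjusted p = 0.0128) and Setd2 lower in memory Th1 than naive cells by 1.35 (adjusted p = 0.0312).

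The deacetylases and corepressors remove acetyl groups or hold the enzymes that do. Hdac2, a class I deacetylase, read 3.42, 2.98 and 2.87 in rested Th1 and 5.40, 3.61 and 3.96 in memory Th1 cells and rose by 1.23 ± 0.39 (adjusted p = 0.0368). It lost the call without rested Th1 sample 2 or 3 or memory Th1 sample 1 (adjusted p = 0.0988, 0.0914 and 0.194), and the difference without that memory sample was 0.695. The series matrix values and a pseudocount of 8 ended it as well (adjusted p = 0.0576 and 0.0560). Sin3a, the scaffold of a deacetylase complex, read 4.51, 4.22 and 3.35 in rested Th1 and 3.21, 3.19 and 3.02 in memory Th1 cells, and fell by 0.89 ± 0.30 (adjusted p = 0.0449). That call was lost without rested Th1 sample 1 or 2 or memory Th1 sample 1, 2 or 3 (adjusted p = 0.193, 0.133, 0.0742, 0.0676 and 0.123), with median centring (adjusted p = 0.0663) and with the spot pattern as a random block (adjusted p = 0.0938). Sin3b rose at the same step by 1.07 with the sample number as a block (adjusted p = 0.0429), and Hdac4 was called in no comparison.

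Th1 and Th2 cells at the same stage differed in 0 of the 43 genes by limma: against 0.18% of reporters for effectors, 0.361% for rested cells and 0.2% for memory cells. At an unadjusted p under 0.05 there were 1, 6 and 4 of the 43 genes, and 105, 452 and 199 of the 4992 reporters. The interaction tests of the rest step and the memory step called 0 genes, against 0.1% and 0.0601% of reporters, with 2 and 4 genes, and 174 and 343 reporters, at an unadjusted p under 0.05. Averaged over the 3 stages, 0 genes were called, against 0.321% of reporters, with 3 genes and 246 reporters at an unadjusted p under 0.05. That average was chosen after the values were seen. With the spot pattern as a random block, these counts were 1 for effectors (2.42% of reporters), 11 for rested cells (20.1%) and 6 for memory cells (7.93%), 5 and 8 for the interactions (7.97% and 16.5%) and 7 for the average over stages (10.3%).

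Genes called for a lineage difference with the spot pattern as a random block are counted above and not named. With the sample number as a block, H3f3b was the only gene called for the mean over the stages. Its level was lower in Th1 than in the Th2 sample of the same number and stage in 9 of 9 pairs, by between 0.11 and 0.79. Its mean difference over the stages was -0.46 ± 0.11 (adjusted p = 0.103), and with the sample number as a block it was called (-0.46 ± 0.09, adjusted p = 0.0150, against 0.741% of reporters). The block also called the memory difference of -0.75 (adjusted p = 0.0419, against 0.401%). The myeloid markers Lyz2 and S100a9 were also lower in memory Th1 than in memory Th2 cells, by 1.98 ± 0.31 and 2.75 ± 0.33 (adjusted p = 0.00487 and 0.000164), and in the mean over the stages, by 0.87 and 0.95 (adjusted p = 0.0337 and 0.0260). Their part in the H3f3b difference was not tested. Hmgn2 was lower in Th1 in 9 of 9 pairs as well, and its rested difference of -0.99 was called with the block (adjusted p = 0.0326, against 2.36%). Setdb1, which methylates H3 at silenced elements, was the only other such gene, with pair differences between -0.75 and -0.02. Across the array 2.8% of reporters had one direction in all 9 pairs, 64 lower and 76 higher in Th1.

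**Figure D5:**
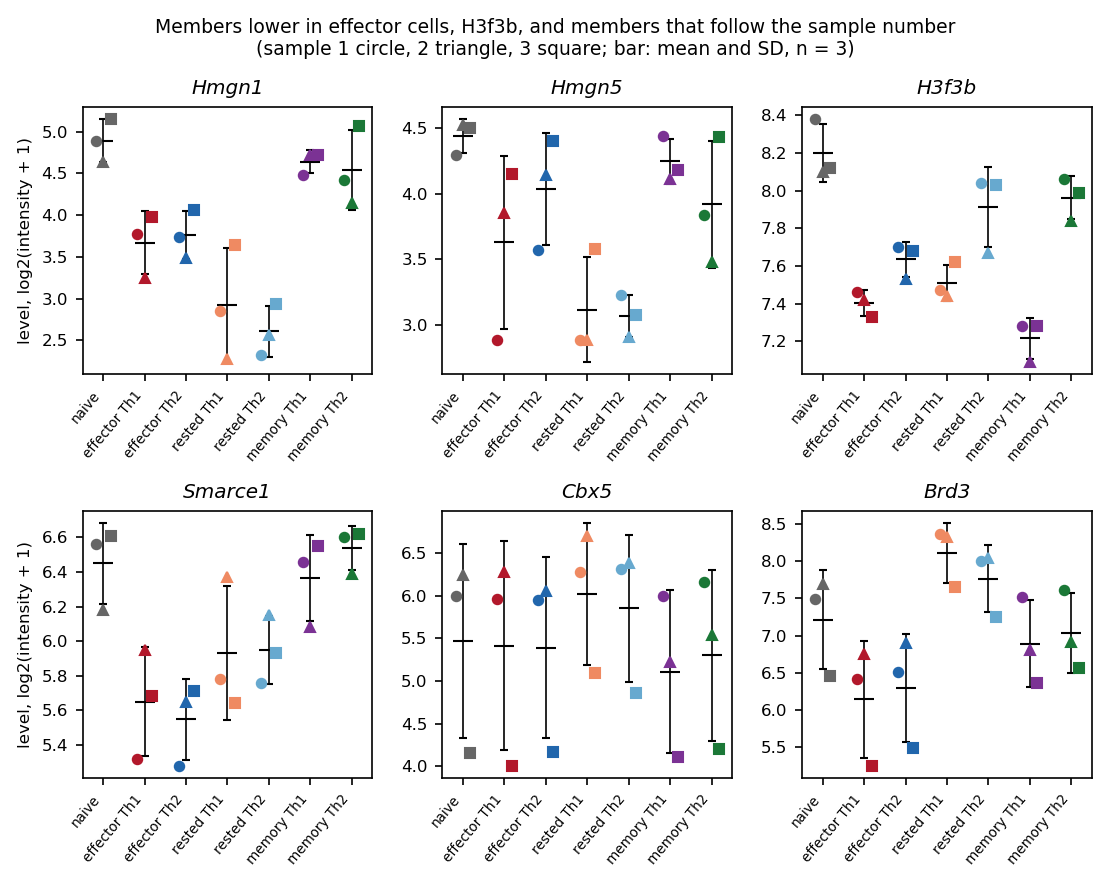
Level in each of the 21 samples by group for Hmgn1, Hmgn5, H3f3b, Smarce1, Cbx5 and Brd3, on the log2(intensity + 1) scale; symbols mark the sample number and bars the mean and SD of 3 samples. Hmgn1 is lowest in rested cells, H3f3b is lower in Th1 than in Th2 at each stage, and sample 3 (square) is the lowest Cbx5 and Brd3 value in all 7 groups.

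For some genes the sample number was as visible as the group. An F test of the number beside the groups, added after the values were seen, called 19 of the 43 genes, against 39.1% of reporters. Cbx5 read 4.16, 4.01, 5.09, 4.11, 4.17, 4.86 and 4.2 in the samples numbered 3 (naive, then effector, rested and memory Th1, then effector, rested and memory Th2), each the lowest of its group. Its means over the groups were 6.09, 6.06 and 4.37 for numbers 1, 2 and 3 (adjusted p = 2.17e-07). Setd2 gave 5.02, 5.58 and 3.55 (adjusted p = 1.01e-05), with number 3 the lowest in 6 groups, and Brd3 7.42, 7.35 and 6.43 (adjusted p = 0.000153). The labels do not say what the number stands for.

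Other chromatin genes came from a list outside the naming rule. Of 111 listed, 49 were measured, and in effectors 3 rose and 4 fell in Th1 (against 9.88% of all reporters) and 5 rose and 4 fell in Th2 (9.13%). On rest 2 rose and 11 fell in Th1 (16.2%), and 1 rose and 5 fell in Th2 (7.57%). Into memory 6 rose and 6 fell in Th1 (17.8%), and 2 rose and 0 fell in Th2 (3.91%). In memory Th1 against naive cells 0 rose and 1 fell, and in memory Th2 0 were called. Uhrf1, which guides Dnmt1 to newly copied DNA, rose in effectors by 1.24 ± 0.24 and 1.30 ± 0.24 (adjusted p = 0.00148 and 0.000942). Asf1b, a histone chaperone, rose by 1.47 and 1.79, and Npm1, a nucleolar histone chaperone, rose by 2.66 and 2.55 and fell on rest by 3.18 and 2.51. Nasp, a chaperone of H3 and H4, fell in effectors by 0.91 and 0.96 and rose from rested to memory cells by 2.02 in Th1 and 1.40 in Th2. Tbl1x, a subunit of the NCoR corepressor complex, fell by 1.64 and 1.45 in effectors and rose by 1.54 and 1.39 on rest.

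Genes of the cell cycle moved at the same steps. Of 46 listed, 26 were measured. In effectors 10 rose and 0 fell in each lineage, against 9.88% of all reporters called in Th1 and 9.13% in Th2. On rest 1 rose and 12 fell in Th1 (against 16.2%), and 2 rose and 12 fell in Th2 (7.57%). Their median level was 3.73 in naive cells, 5.13 and 5.20 in effector Th1 and Th2, 3.28 and 3.29 in rested, and 3.83 and 3.64 in memory cells. The median of the differences per gene was smaller, at 0.68 and 0.79 in Th1 and Th2 effectors and -1.20 and -1.02 on rest. Mki67 samples overlapped, with 3.22, 3.75 and 3.53 in naive, 3.93, 3.81 and 3.41 in effector Th1 and 3.97, 3.69 and 3.67 in effector Th2 cells. Top2a, which untangles copied chromosomes, rose in effectors by 3.21 ± 0.24 and 3.00 ± 0.24 and fell on rest by 3.62 and 3.43. Into memory 5 of the 26 genes rose and 3 fell in Th1 (against 17.8% of all reporters), and 1 rose and 0 fell in Th2 (3.91%). The part of these genes in the changes of H2aw, Hmgb2, Dnmt1, H2az1 and Hmgn2 was not tested.

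Markers of other cells also moved. Of 15 myeloid and granulocyte markers, 5 were measured, and their summed intensity was 261 to 340 in naive, 72.6 to 183 in effector Th1, 74.1 to 165 in effector Th2, 244 to 387 in rested Th1, 183 to 298 in rested Th2, 135 to 180 in memory Th1 and 144 to 214 in memory Th2 samples. Lyz2, Fcer1g and S100a9 fell in effectors and stayed lower in memory than in naive cells, by 5.23 ± 0.31, 2.82 ± 0.34 and 4.87 ± 0.33 in Th1 and by 3.25 ± 0.31, 2.45 ± 0.34 and 2.11 ± 0.33 in Th2. From rested to memory cells S100a9 fell in Th1 by 1.76 and differed by 0.87 in Th2, and the difference of these steps was called in the interaction test (-2.64 ± 0.46, adjusted p = 0.0255). Csf3r, at a mean level of 7.20, made up most of the summed intensity in all samples outside the naive group. It rose on rest in Th1 by 1.85 ± 0.42 (adjusted p = 0.00404) and differed by -0.02 between memory and naive cells in each lineage, and Itgam differed there by 0.45 in Th1 and 0.32 in Th2. Of 6 thymocyte markers, 2 were measured, with summed intensities of 104 to 154 in naive, 29.5 to 94.4 in effector and rested and 129 to 199 in memory samples. Cd1d1 fell in effectors by 1.43 in Th1 and 1.83 in Th2 and rose from rested to memory cells by 1.55 and 2.64, the step at which H2az1 and Hmgn1 rose. Cd24a, the other thymocyte marker, differed at that step by -0.80 in Th1 and -0.0035 in Th2 and was lower in memory Th1 than in naive cells by 2.00 ± 0.37 (adjusted p = 0.00939), so the sums follow Cd1d1. Of 7 erythroid and platelet markers 2 were measured (summed intensity 2.64 to 15.3 over all samples, with Itga2b higher on rest in Th1 by 0.90 and lower into memory Th1 by 1.59), of 8 CD8 T and NK cell markers 1 (1.12 to 2.53), and of 9 B cell markers 0. The part of these cells in the falls of Hmgn1, H3f3b and Smarce1 in effectors, in the rises of H2az1 and Hmgn1 into memory, or in the differences of memory from naive cells, was not tested.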

How the data were processed

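The authors deposited linear spot intensities, 9600 per array, for 42 arrays. The sources used here do not give the image reader, any background subtraction or any earlier normalisation. Arrays were quantile-normalised together, 1 was added and log2 taken, and the spots of a reporter, then arrays a and b, were averaged. A linear model over the 7 groups was fitted per reporter with limma 3.58.1 in R 4.3.3 (lmFit, eBayes), and p-values were adjusted by Benjamini-Hochberg over 4992 reporters and called under 0.05. No reporter was left out. Errors are standard errors of the fit unless marked as SD. The model was tested on simulated data with independent samples, which does not cover the pairing of same-numbered samples described below. Tables and plots used Python 3.11.15, pandas 2.3.3, numpy 2.4.6 and matplotlib 3.10.9.

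The probe-to-gene table named 1 gene for 3626 reporters, several for 172 and none for 1194. All 43 genes matched the RefSeq table. Any of the 43 genes could be named, grouped by role, and other genes only from lists of other chromatin genes, cell cycle genes and markers of CD4 T, B, myeloid, CD8 T and NK, erythroid and thymocyte cells. Genes and lists were chosen with earlier results of these data known. Same-numbered samples deviated together in every comparison (r from 0.139 to 0.909). The main fit took no account of this pairing, so calls and p-values ignore it unless a block is named. The number entered only as a block in an alternative fit, and the labels do not state what it marks. The alternatives were median centring, the deposited series matrix, a pseudocount of 8, a filter on dim reporters, fits of the compared groups alone, the number or the spot pattern as a block, and leaving out each sample.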

Additional observations from a re-analysis of the deposited data

How the results depend on the processing

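Of the 39 called differences of single genes, 22 kept their call under every alternative and 0 changed sign. Median centring ended 8 calls, a fit of only the compared groups 12, the spot pattern as a random block 5, the series matrix 2, a pseudocount of 8 ended 1, and the filter on dim reporters and the replicate block ended 0. With median centring, 3 genes were called for effector Th2 minus naive and 0 for memory Th1 minus naive. Only the compared groups gave 1 gene for memory Th1 minus rested Th1 and 0 for memory Th1 minus naive. The series matrix and the pseudocount of 8 each called 1 gene for memory Th1 minus memory Th2 and 1 for the lineage mean, and the filter on dim reporters, which 29 of the 43 genes passed, 1 for the lineage mean. Shares of all reporters in these alternative fits are not given, so these counts describe the 43 genes alone.

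The pairing of same-numbered samples by a replicate block gave 11 genes for effector Th1 minus naive, against 16.7% of all reporters. It gave 11 for rested Th2 minus effector Th2 (15.8%) and 16 for memory Th1 minus rested Th1 (32.2%). The counts were 6 for memory Th2 minus rested Th2 (14.4%) and 23 for the F test (46.7%). The block also called 1 gene each for rested Th1 minus rested Th2 (2.36%), memory Th1 minus memory Th2 (0.401%) and the lineage mean (0.741%). Apart from the calls it added, it changed no other call. With the spot pattern as a random block, 15 genes were called for memory Th1 minus naive, 12 for memory Th2 minus naive, 1 for effector Th1 minus effector Th2, 11 for rested Th1 minus rested Th2, 6 for memory Th1 minus memory Th2, 5 for the rest step, 8 for the memory step, 7 for the lineage mean and 26 for the F test. The cause was not tested.

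Leaving out each sample in turn gave 3 to 6 genes for effector Th1 minus naive (3 without naive 1), 4 to 6 for effector Th2 minus naive, 7 to 10 for rested Th1 minus effector Th1, 6 to 8 for rested Th2 minus effector Th2, 6 to 12 for memory Th1 minus rested Th1, 2 to 3 for memory Th2 minus rested Th2 and 11 to 15 for the F test. For memory Th1 minus naive it gave 0 to 3, with 0 without naive 1, 2 or 3 and 1 without memory Th1 1 or 3. The other comparisons stayed at 0. With 3 samples a group and no empty-spot signal, small changes of dim genes could not be resolved.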
